A study of Homo sapiens with 96 samples.

Results

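The genes described here are those of the endoplasmic reticulum (ER) chaperone and folding machinery, a list of 35 genes. The ATF6 and XBP1 arms of the unfolded protein response are known to regulate them, or they form those arms. The exception is EIF2AK3, which encodes PERK, the sensor of a further arm. Members were found by gene symbol in the platform annotation, and a gene with several probes was represented by the probe with the highest mean over all arrays. Of the 35 listed genes, 34 had a probe and make up the measured members among 18571 genes tested, and HERPUD1 was not analysed here. All 34 passed the filter on dim probes, 25 of them with 1 probe kept and 9 with more. ERO1LB and SELS of the list carry the symbols ERO1B and SELENOS in the annotation.

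The data come from LAPC4, a prostate cancer cell line that keeps an androgen receptor, measured on 96 Illumina Human HT-12 v4 arrays in 30 groups after 6 h of exposure. Each of 28 chemicals was given together with 0.33 nM R1881, a synthetic androgen, and had 3 arrays numbered 1 to 3. R1881 alone and the vehicle, DMSO at 0.05%, were each measured on 6 arrays (1, 2, 3, 1b, 2b and 3b), so every chemical group and the R1881 group hold the androgen and only the DMSO group lacks it. BisphenolA, a plastic monomer, Apigenin, a plant flavone, Spironolactone, a mineralocorticoid receptor antagonist, and 15 other chemicals were given at 20 uM. Another 5 were given at 10 uM, namely Androstenedione, Dexamethasone, Mifepristone, Progesterone and Triticonazole. The last 5 were given at 0.5 uM, namely Dihydrotestosterone, MethylTestosterone, Norethindrone, Testosterone_propionate and Trenbolone. The experiments were run on 3 days, per the series' design text, but the day of an array and the meaning of the letter b cannot be read from the labels, so the p-values measure only the spread between these arrays, which may be partly technical.

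The ER folds and modifies proteins that enter the secretory pathway. When unfolded proteins build up there, the sensors IRE1 (encoded by ERN1), PERK (encoded by EIF2AK3) and ATF6 are activated. IRE1 splices the XBP1 mRNA, ATF6 is cut in the Golgi, and the resulting transcription factors XBP1 and ATF6 raise the genes for chaperones, disulfide enzymes, the translocon and ER-associated degradation (ERAD), while PERK acts through ATF4. Prostate luminal cells are secretory, and androgens are known to affect their secretory machinery.

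The authors' values are log2 intensities, and every difference below is a difference of log2 values. The arrays fell into 2 expression profiles that the labels do not name, found from the 2000 most variable genes outside the list: profile A held 34 arrays and profile B held 62. Arrays 1 and 3 of BisphenolA were in profile A and array 2 in profile B, whereas of R1881 and of DMSO the arrays 3 and 3b were in profile A and the other 4 in profile B. Within profile B, 5 arrays correlated below 0.9 with the median of that profile. These were array 2 of Trenbolone, Spironolactone, Testosterone_propionate and MethylTestosterone and array 3 of Flutamide. Because of this, each comparison was fitted with limma on all 96 arrays and again on 91 arrays without these 5 and with the profile as a block, and both are given. Of 8 luminal markers measured, KRT18 (8.48 under BisphenolA, 7.97 under R1881) and CDH1 (10.80 and 10.43 in the same order) had a higher mean with BisphenolA and the other 6 a lower one, among them EPCAM (11.48 and 11.63) and HOXB13 (9.72 and 9.97), and 0 were called in either fit. KLK3, the gene of prostate-specific antigen, averaged 6.74 under BisphenolA, 6.83 under R1881 and 6.73 in DMSO, close to the array medians of 6.7211 to 6.7212, so that this defining marker was near background. The mean over the 8 measured luminal markers was 9.30 to 9.46 on BisphenolA arrays and 9.16 to 9.64 on R1881 arrays, and the mean over 8 stromal, endothelial and leukocyte markers was 6.76 to 6.91 and 6.75 to 6.95 in the same order.

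BisphenolA with R1881 was compared with R1881 alone to ask how a chemical with suspected endocrine activity moved these genes beside the androgen. MANF, a secreted protein of the ER stress response, DNAJB9, a co-chaperone of the chaperone BiP, and CRELD2, a secreted disulfide-bond protein, were higher with BisphenolA in the fit on 91 arrays with the profile as a block. Their changes there were 0.77 for MANF (1.71-fold), 0.55 for DNAJB9 and 0.42 for CRELD2. In the fit on all 96 arrays 0 of 34 members passed an adjusted p of 0.05 by limma with Benjamini-Hochberg adjustment, where 0.0323% of all genes did, and 4 members had an unadjusted p under 0.05. In the fit on 91 arrays 3 members were called higher and 0 lower, where 0.517% of all genes were called. The values of 29 of 34 members were positive in each fit, beside 46.2% and 49.2% of all genes. The members' median was 0.23 on all arrays and 0.24 on 91 arrays, beside medians over all genes of -0.00929 and -0.00172. The count was not particular to BisphenolA. Against the same R1881 arrays 30 of 34 were positive under Cyproterone_acetate, 27 under Mifepristone and 26 under Atrazine in each fit. The lowest counts were 5 under Trenbolone on all arrays and 9 under Vinclozolin on 91. In bulk samples of this kind, fewer cells with a transcript and less of it per cell cannot be told apart.

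**Figure D1:**
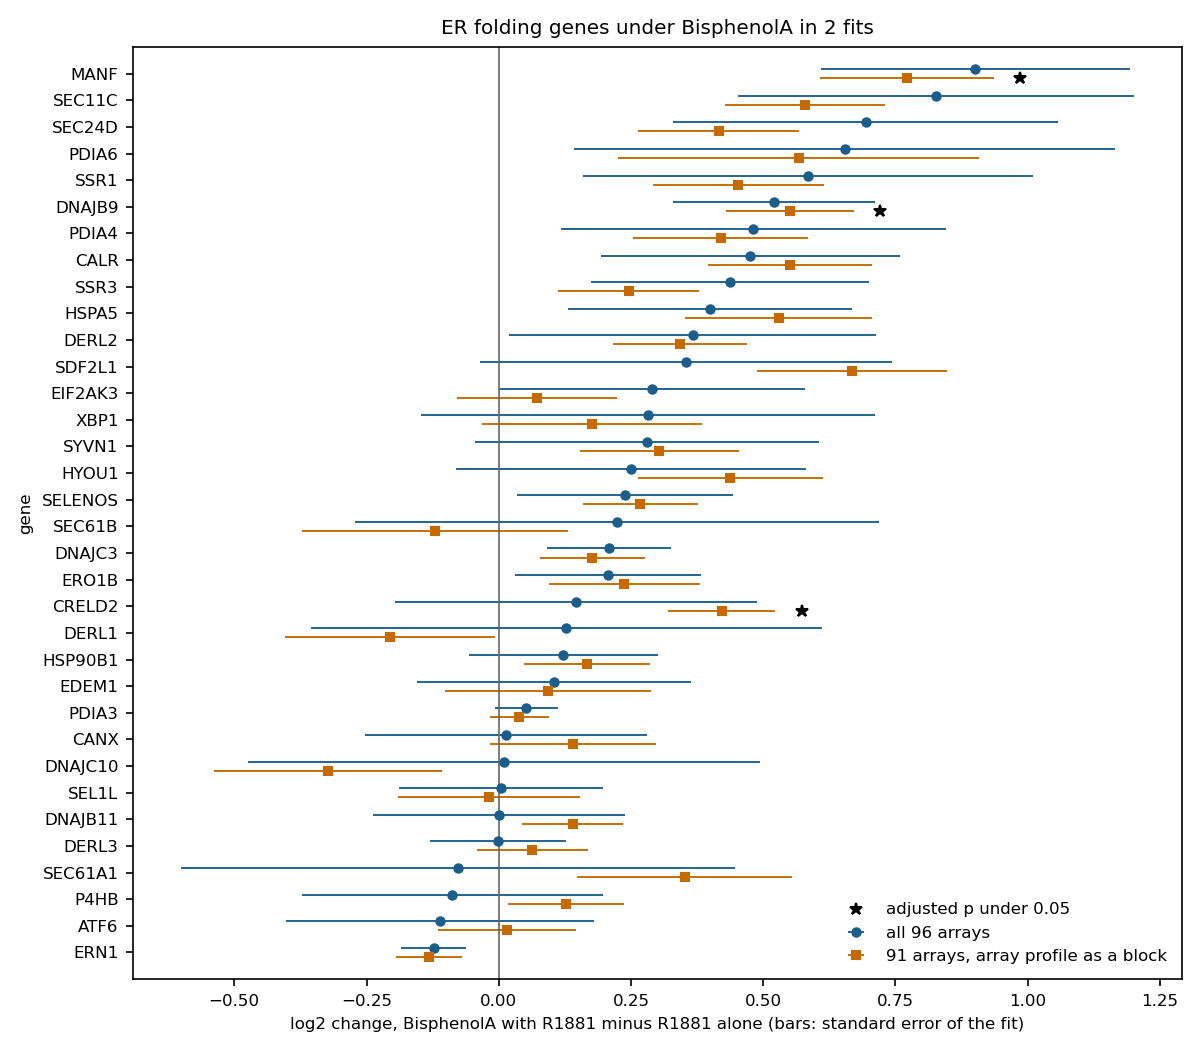
Log2 change of each of 34 ER folding genes under BisphenolA with R1881 minus R1881 alone, with the standard error of the limma fit as bars, on all 96 arrays (circles) and on 91 arrays with the array profile as a block (squares). MANF is at the top with 0.90 and 0.77, and stars mark MANF, DNAJB9 and CRELD2, the genes with an adjusted p under 0.05, in the second fit only.

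MANF had 12.33, 11.86 and 12.31 in arrays 1, 2 and 3 of BisphenolA, against 11.02, 10.84, 11.57, 11.37, 11.38 and 11.39 in the R1881 arrays 1, 1b, 2, 2b, 3 and 3b. Every BisphenolA array lay above every R1881 array. The means were 12.16 ± 0.265 under BisphenolA and 11.26 ± 0.272 under R1881 (SD, n = 3 and n = 6). The change of MANF on all arrays was 0.90 with a standard error of 0.292, an unadjusted p of 0.00292 and an adjusted p of 1 by limma. On 91 arrays with the profile as a block it was 0.77 with a standard error of 0.164 and an adjusted p of 0.00497. Within profile A the difference was 0.94 between 2 arrays of each group, and within profile B it was 0.65 between 1 array of BisphenolA and 4 of R1881. DMSO arrays had MANF at 10.96 to 11.56, a range that overlaps that of R1881.

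DNAJB9 had 10.35, 9.999 and 10.14 in arrays 1, 2 and 3 of BisphenolA, against 9.474 to 9.871 in the 6 R1881 arrays and 8.858 to 9.452 in the 6 DMSO arrays. The groups formed 3 levels without overlap, BisphenolA with R1881 above R1881 alone and R1881 above DMSO. For DNAJB9 the change under BisphenolA was 0.52 with a standard error of 0.191 and an adjusted p of 1 on all arrays, and 0.55 with a standard error of 0.121 and an adjusted p of 0.00796 by limma on 91 arrays. Its differences were 0.63 within profile A and 0.34 within profile B.

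CRELD2 had 11.10, 11.96 and 10.89 in arrays 1, 2 and 3 of BisphenolA, against 11.65, 11.55, 11.42 and 11.40 in the 4 R1881 arrays of profile B and 10.48 and 10.53 in the 2 of profile A. The groups overlap when profiles are ignored, and within each profile the BisphenolA arrays lay above the R1881 arrays, by 0.49 in profile A and 0.46 in profile B. CRELD2 was one of the members most tied to the profile, with a mean 0.80 higher in profile B than in profile A over all groups. Its change was accordingly 0.15 with a standard error of 0.342 on all arrays, and 0.42 with a standard error of 0.102 and an adjusted p of 0.0268 by limma with the profile as a block. Without BisphenolA array 2 the change of CRELD2 on the remaining arrays was -0.18.

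**Figure D2:**
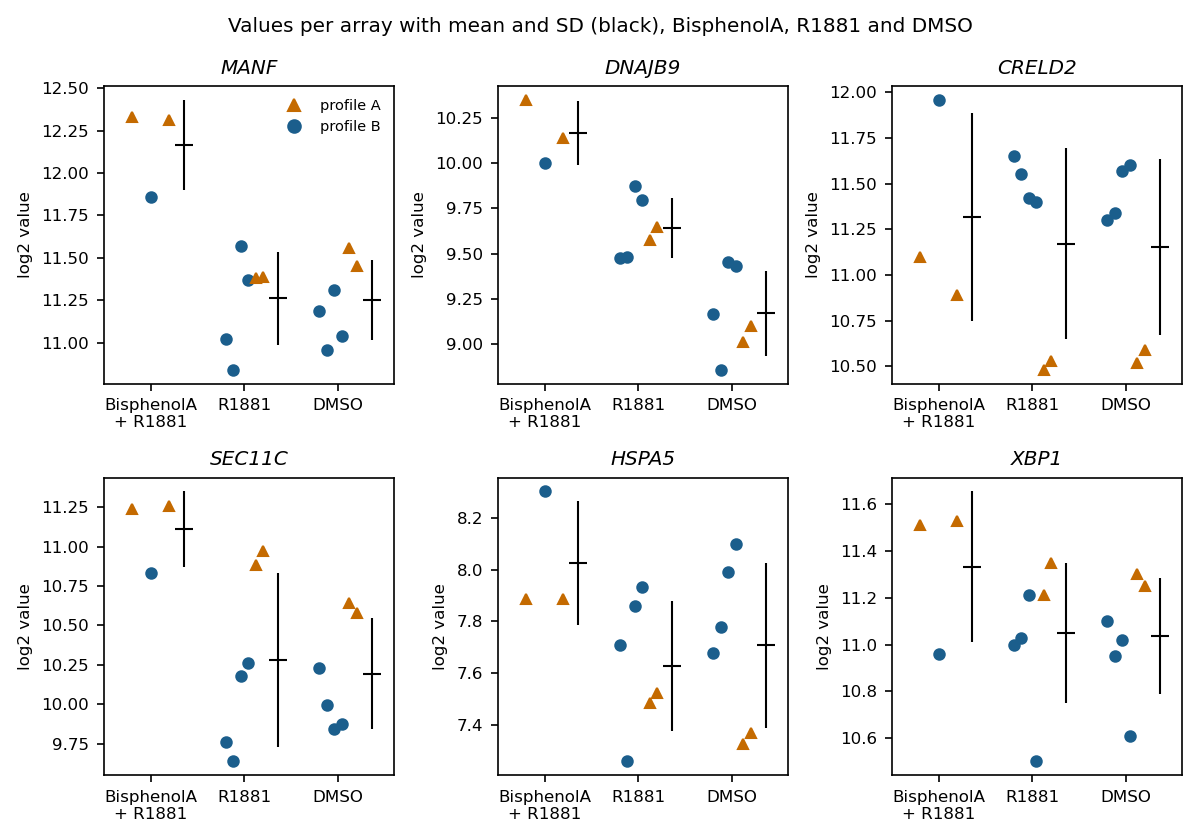
Log2 values per array of MANF, DNAJB9, CRELD2, SEC11C, HSPA5 and XBP1 in BisphenolA with R1881 (3 arrays), R1881 (6 arrays) and DMSO (6 arrays), with profile A as triangles, profile B as circles and the group mean with SD in black. MANF and DNAJB9 under BisphenolA lie above all R1881 arrays, and CRELD2 and SEC11C separate by profile in each group.

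The 6 chaperones all had positive values under BisphenolA in both fits, with a median of 0.30 on all arrays and 0.48 on 91 arrays, and 0 of them passed the test in either. HSPA5, which encodes the main ER chaperone BiP, had 7.888, 8.304 and 7.888 in BisphenolA arrays 1, 2 and 3, against 7.258 to 7.931 in R1881 arrays and 7.325 to 8.101 in DMSO arrays. The ranges of HSPA5 overlap. Its change was 0.40 with a standard error of 0.269 on all arrays and 0.53 with a standard error of 0.177 and an adjusted p of 0.329 by limma on 91 arrays, with a 95% interval of 0.175 to 0.884 in the second fit. SDF2L1, a co-factor of BiP complexes, had a difference of 0.35 on all arrays and 0.67 on 91 arrays (adjusted p = 0.0745 by limma), and CALR, the lectin chaperone calreticulin, 0.48 and 0.55 (adjusted p = 0.111). HYOU1, a nucleotide exchange factor for BiP, had values of 0.25 and 0.44 in the same order of fits, HSP90B1, the ER form of HSP90, 0.12 and 0.17, and CANX, the membrane lectin chaperone calnexin, 0.01 and 0.14. Among the other co-chaperones DNAJC3, a J protein that binds BiP, had 0.21 and 0.18, DNAJB11, another J protein, 0.00 and 0.14, and DNAJC10, a J protein with disulfide reductase activity, 0.01 and -0.32.

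Of the 5 disulfide enzymes, 4 had positive values on all arrays and 5 on 91 arrays, and 0 were called. PDIA6, a protein disulfide isomerase, had 10.21, 10.20 and 10.13 in BisphenolA arrays, against 9.067 to 10.30 in R1881 arrays and 8.492 to 10.11 in DMSO arrays. The R1881 arrays of PDIA6 spread over more than 1 log2 unit, and the BisphenolA arrays lay inside that spread. Its change was 0.65 with a standard error of 0.512 on all arrays and 0.57 with a standard error of 0.341 on 91 arrays. PDIA4, a further isomerase, and ERO1B, an oxidase that recharges the isomerases, had every BisphenolA array above every R1881 array, with changes of 0.48 and 0.21 on all arrays and 0.42 and 0.24 on 91. P4HB, the abundant isomerase PDI, had -0.09 and 0.13 in the 2 fits. PDIA3 had 0.05 and 0.04, and its probe was above the array median in only 10 of 96 arrays, so it can show little.

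The genes of translocation and export, 6 in number, held 3 of the 5 largest differences on all arrays, SEC11C, SEC24D and SSR1, and all 3 were smaller with the profile as a block. Of the 6, 5 were positive in each fit and 0 were called. SEC11C, a subunit of signal peptidase, had 11.24, 10.83 and 11.26 in BisphenolA arrays 1, 2 and 3, against 9.636 to 10.26 in the 4 R1881 arrays of profile B and 10.88 and 10.97 in the 2 of profile A. Within its own profile each BisphenolA array was above all R1881 arrays for SEC11C, by 0.32 in profile A and 0.87 in profile B. The change of SEC11C was 0.83 with a standard error of 0.375 on all arrays, and 0.58 with a standard error of 0.152 and an adjusted p of 0.057 by limma on 91 arrays. SEC11C was 0.77 lower in profile B than in profile A over all groups.

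SEC24D, a COPII coat subunit that packs cargo, had 8.962, 7.119 and 8.667 in BisphenolA arrays 1, 2 and 3, against 7.032 to 7.557 in R1881 arrays of profile B and 8.103 and 8.163 in those of profile A. SEC24D was different by 0.68 in profile A and by -0.15 in profile B, where a single BisphenolA array was measured. Its change was 0.69 with a standard error of 0.364 on all arrays and 0.42 with a standard error of 0.152 on 91 arrays (adjusted p = 0.465 by limma). SSR1, a subunit of the translocon-associated protein complex, had 10.80, 10.33 and 10.88 in BisphenolA arrays, against 9.675 to 10.47 in R1881 arrays, and the ranges overlap. The change of SSR1 was 0.58 with a standard error of 0.425 on all arrays and 0.45 with a standard error of 0.161 on 91. SSR3, of the same complex, had 0.44 and 0.25 in the 2 fits. SEC61A1, the channel subunit of the translocon, had -0.08 and 0.35, and SEC61B, its tail-anchored partner, had 0.22 and -0.12.

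Of the 7 ERAD genes, 6 had positive values on all arrays and 5 on 91 arrays, and 0 were called. DERL2, a retrotranslocation factor, and SELENOS, a selenoprotein that recruits the extraction machinery, had every BisphenolA array above every R1881 array, with DERL2 at 0.37 and 0.34 and SELENOS at 0.24 and 0.27 in the 2 fits. The ubiquitin ligase SYVN1 had 0.28 and 0.30, its partner SEL1L 0.00 and -0.02, the mannosidase-like EDEM1 0.10 and 0.09, DERL1 0.13 and -0.21, and DERL3 -0.00 and 0.06. The 4 sensor genes had the lowest medians of all roles, 0.09 and 0.04, and 0 were called. XBP1 had 11.51, 10.96 and 11.53 in BisphenolA arrays, against 10.50 to 11.35 in R1881 arrays and 10.61 to 11.30 in DMSO arrays, and the ranges overlap. The change of XBP1 was 0.28 with a standard error of 0.429 on all arrays and 0.18 with a standard error of 0.208 on 91 arrays, whose 95% interval ran from -0.239 to 0.59. The probes are not assigned here to the spliced or unspliced form of XBP1. EIF2AK3 had 0.29 and 0.07, ATF6 -0.11 and 0.02, and ERN1 -0.12 and -0.13, the probe of ERN1 being above the array median in only 3 of 96 arrays.

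Counts that do not rest on a fitted spread gave the following. For 6 of 34 members, PDIA4, DNAJB9, MANF, DERL2, ERO1B and SELENOS, every BisphenolA array lay above every R1881 array, which is 17.6% of members beside 0.851% of all genes. DERL2, ERO1B and SELENOS rest here on the chosen probe, since another probe of each followed it at -0.111, -0.286 and -0.468 (Pearson's r). For 0 members every BisphenolA array lay below, beside 1.6% of all genes. Within profile A the BisphenolA mean was above the R1881 mean for 31 of 34 members with a median of 0.24, beside 48.2% of all genes, and within profile B for 25 of 34 with a median of 0.17, beside 48.0% of all genes. The same sign was positive in both profiles for 25 members, 6 were higher in profile A only, and DNAJC10, DERL1 and ERN1 were higher in neither.

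BisphenolA was next set against the mean of the other 27 chemical groups, a contrast in which the R1881 mean has no part. The R1881 arrays still entered the spread of the fit and, on 91 arrays, the profile term. The comparison is therefore not independent of them. On all arrays 0 of 34 members were called, beside 0.00538% of all genes, and 6 had an unadjusted p under 0.05. On 91 arrays with the profile as a block DNAJB9 (0.58, adjusted p = 0.000654), SEC11C (0.61, adjusted p = 0.0125) and MANF (0.63, adjusted p = 0.0249) were higher by limma, beside 0.102% of all genes called. The median over members was 0.28 on all arrays and 0.22 on 91, with 30 and 31 of 34 members positive, beside 45% and 48.2% of all genes. On all arrays the other 27 groups hold the 5 arrays that stand apart. The members' medians on these 5, as differences from the R1881 mean, ran from -1.22 to 0.253. Their part in the value of 0.28 was not tested.

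The other genes of the same pathways, listed with earlier results of these data known, were read from the same fits. On 91 arrays EDEM2, an ERAD mannosidase-like protein, was higher under BisphenolA by 0.61 (adjusted p = 0.00176 by limma) and was the 1 gene called among 15 other ERAD components, and 0 of these were called on all arrays. Among 18 genes of ER to Golgi transport 15 were positive, with medians of 0.33 on all arrays and 0.17 on 91, and 0 were called. BET1, a SNARE of that step, had 0.99 with a standard error of 0.463 on all arrays and 0.64 (adjusted p = 0.0954 by limma) on 91, ARFGAP3, a coat regulator, had 0.79 and 0.59 in the 2 fits, and SEC23B, a COPII coat subunit, 0.71 and 0.58. Among 19 other translocation and glycosylation subunits 16 were positive on all arrays and 17 on 91, with medians of 0.17 and 0.16, and 0 were called. The largest differences there were 0.86 and 0.34 for STT3B, a catalytic subunit of oligosaccharyltransferase, 0.73 and 0.36 for SPCS3, of signal peptidase, and 0.68 and 0.59 for SSR2. Among 20 other ER folding enzymes 12 and 16 were positive in the 2 fits, with medians of 0.06 and 0.09 and 0 called, and GANAB, glucosidase II, had -0.52 and -0.16, its other subunit PRKCSH -0.34 and -0.17, and HSPA13 0.35 and 0.21. The 15 genes of the PERK and ATF4 arm had medians of 0.01 and 0.13 with 9 positive, and DDIT3, which encodes the stress factor CHOP, had 0.67 and 0.68 (adjusted p = 0.0862 on 91 arrays by limma). ATF3, a stress-induced factor, had 0.60 and 0.38, XPOT, the exportin of tRNA, had 0.47 and -0.01, and 0 of the 15 were called. The 12 cytosolic heat shock genes, which answer to another stress pathway, had medians of 0.03 and 0.00, with 8 and 6 positive, and 0 called. DNAJB1 had 0.26 and 0.24 there, HSP90AB1 -0.24 and -0.05, and HSPE1 0.21 and 0.01.

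R1881 was compared with DMSO to ask what the androgen alone did. DNAJB9 had all 6 R1881 arrays above all 6 DMSO arrays, at 9.64 ± 0.164 under R1881 and 9.17 ± 0.235 in DMSO (SD, n = 6 each), and it was the only member so separated, 2.94% of members beside 0.528% of all genes. The change of DNAJB9 was 0.47 with a standard error of 0.156 and an adjusted p of 0.961 on all arrays, and 0.47 with a standard error of 0.0982 and an adjusted p of 0.0023 by limma on 91 arrays. The same-numbered arrays of R1881 and DMSO deviated together, and with the array number as a replicate block, on these 12 arrays alone, DNAJB9 had an adjusted p of 0.000895 by limma and was the 1 member called, beside 1.48% of all genes. On all arrays 0 of 34 members were called, where 0.124% of all genes were and 2 members had an unadjusted p under 0.05, and on 91 arrays 1 of 34, where 0.845% of all genes were. The other members lay between -0.27 for CALR and 0.23 for DNAJB11, whose adjusted p was 0.242 by limma on 91 arrays. HSPA5 had -0.08 and XBP1 0.01, and the median over members was 0.02. Of the lists of other pathway genes, 0 genes were called under R1881 in either fit.

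Over the 28 chemicals, all compared with the same 6 R1881 arrays, the median change of the members was highest under BisphenolA in both fits. Doses were 20, 10 or 0.5 uM, so the order holds only at the doses given. On all arrays it was 0.23 under BisphenolA, 0.18 under Cyproterone_acetate, 0.13 under Apigenin, 0.10 under Prochloraz and 0.10 under Mifepristone. At the other end stood Spironolactone at -0.28 and Trenbolone at -0.48. On 91 arrays the low end was at -0.06 under Vinclozolin, and the same 5 chemicals held the top. For 10 of 34 members the value under BisphenolA was the highest of the 28 on all arrays, and for 10 also on 91 arrays. PDIA6, DNAJB9, MANF, SEC24D, SEC11C, SSR1 and SSR3 were in both sets. The same count over all genes was not made, so these counts have no background. Arrays 1 and 3 of BisphenolA were in profile A. Of the genes in both sets, DNAJB9 was 0.11 higher in profile B than in profile A. The others were lower there, from -0.33 for PDIA6 to -0.84 for SEC24D. By array, the median of the members' differences from the R1881 mean was 0.26, 0.22 and 0.25 in BisphenolA arrays 1, 2 and 3.

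**Figure D3:**
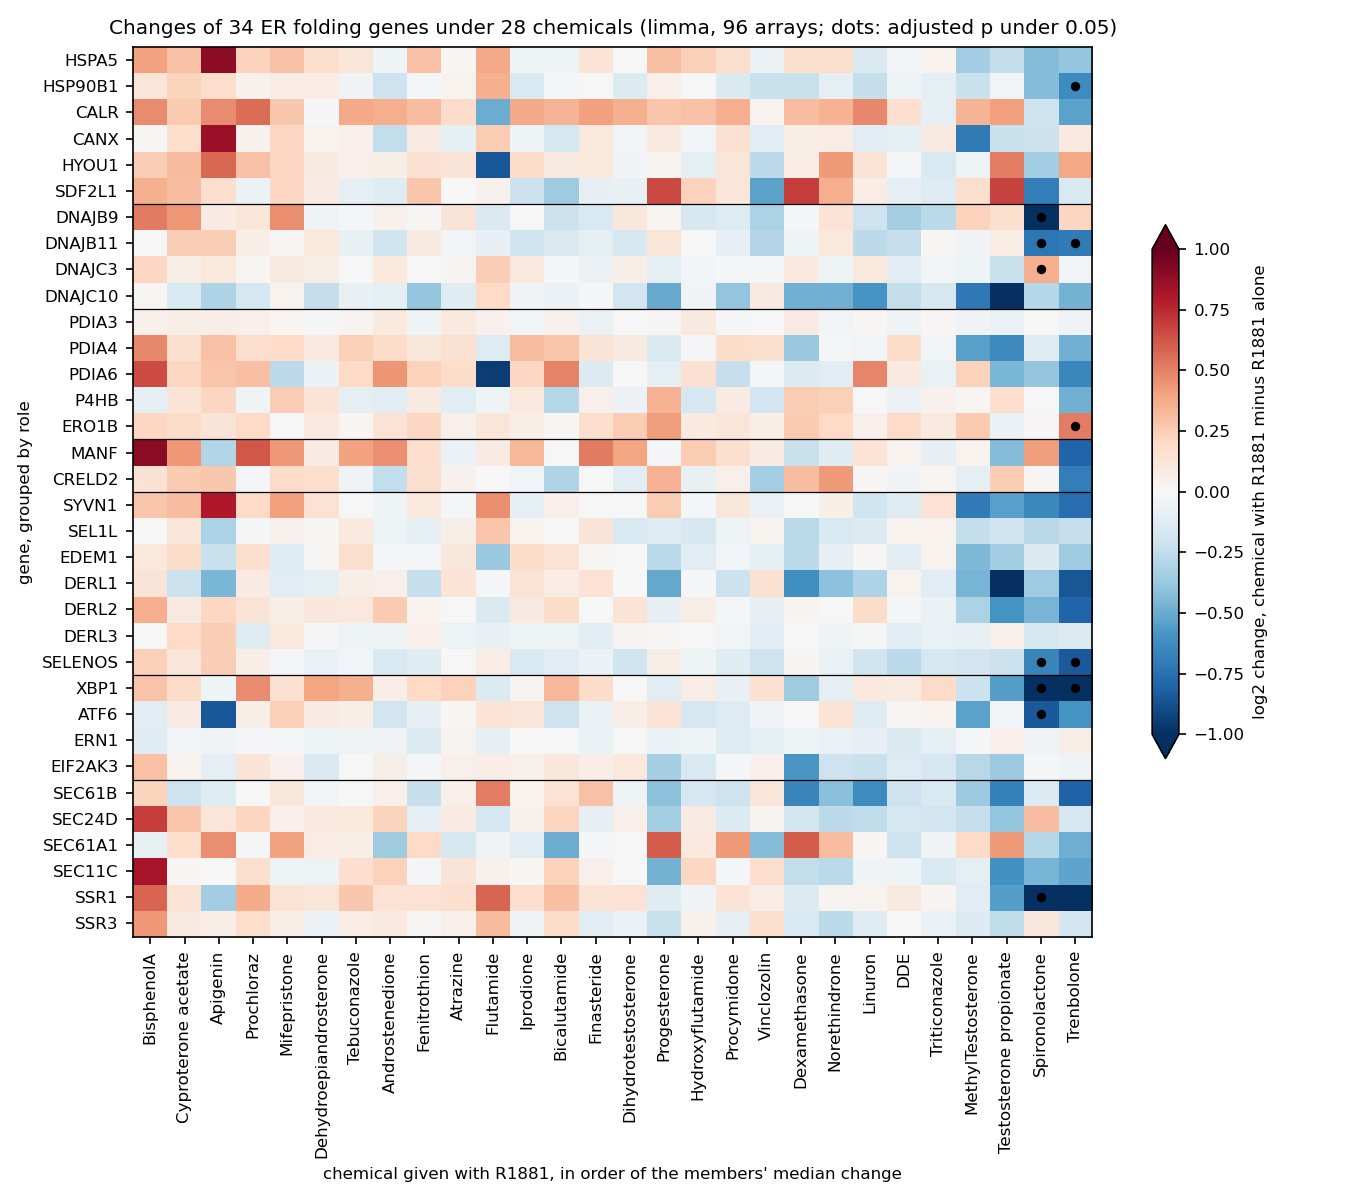
Log2 change of 34 members (rows, grouped by role) under each of 28 chemicals with R1881 minus R1881 alone (columns, ordered by the members' median change), limma on all 96 arrays, with dots for an adjusted p under 0.05. BisphenolA on the left has 29 positive values of 34, and Cyproterone_acetate beside it has 30. The dots lie under Spironolactone and Trenbolone, each of which holds an array that stands apart.

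**Figure D4:**
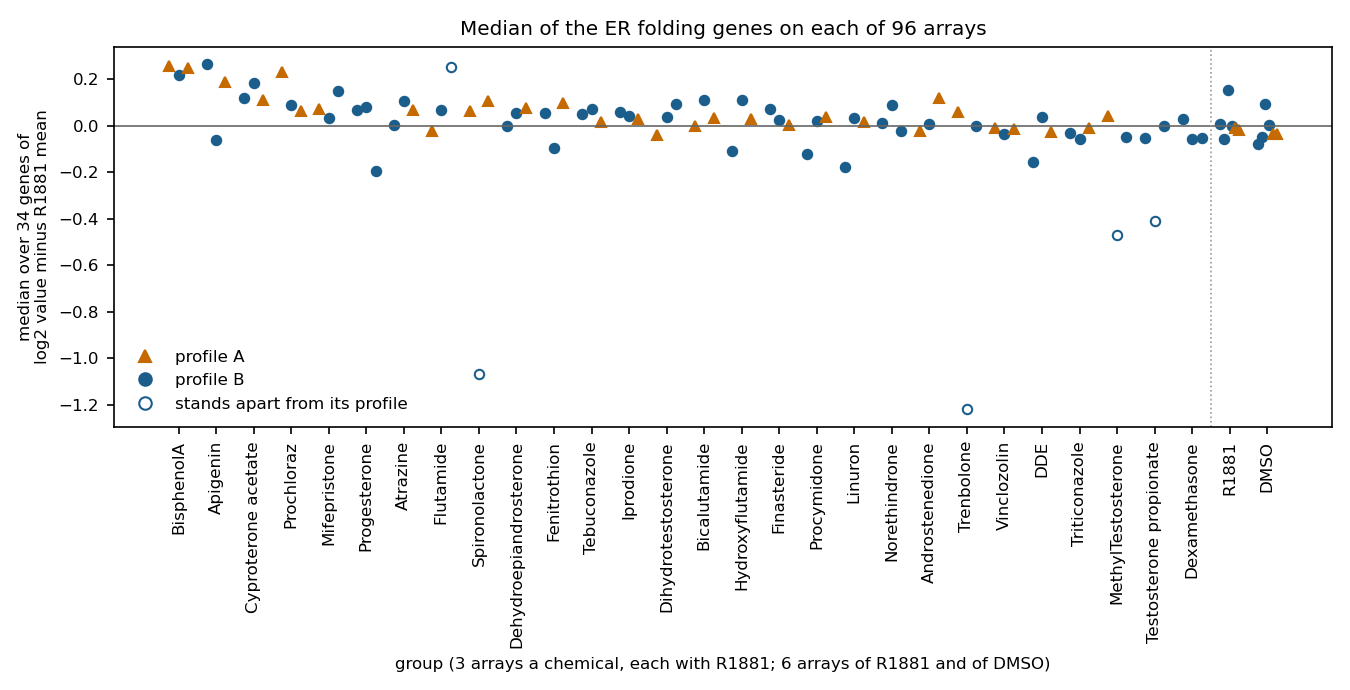
Median over 34 members of the log2 value minus the R1881 mean, for each of 96 arrays by group, with profile A as triangles, profile B as circles and arrays that stand apart as open symbols. The 3 BisphenolA arrays lie at 0.22 to 0.26, and array 2 of Trenbolone and of Spironolactone at -1.22 and -1.07.

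Under Apigenin, 6 of 34 members were called on 91 arrays by limma with Benjamini-Hochberg adjustment, a share of members near the 15.7% of all genes called there. HSPA5 (0.90, 1.86-fold), CANX (0.86), SYVN1 (0.80), HYOU1 (0.57) and CALR (0.47) were higher and ATF6, the gene of the sensor itself, was lower by a change of -0.84. All 6 chaperones were positive with a median of 0.52, all 4 sensors were negative with a median of -0.07, and the 6 genes of translocation and export had a median of 0.03. On all arrays 0 of 34 were called, beside 1.41% of all genes, with 4 at an unadjusted p under 0.05. The same-numbered arrays of Apigenin and R1881 deviated together, and with the array number as a replicate block, on the arrays of these groups alone, 5 members were called, beside 7.68% of all genes: HSPA5, CANX, SYVN1 and HYOU1 higher and ATF6 lower, with CALR at an adjusted p of 0.133 by limma.

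HSPA5 had 8.375, 8.846 and 8.353 in Apigenin arrays 1, 2 and 3, against 7.258 to 7.931 in R1881 arrays, and the groups do not overlap. Its adjusted p was 0.0779 on all arrays and 0.00011 on 91 arrays by limma. CANX had 9.425, 9.810 and 9.645, against 8.575 to 9.018 in R1881 arrays, with adjusted p-values of 0.0941 and 2.9e-05 in the 2 fits. SYVN1 had 9.642, 9.647 and 9.581, against 8.629 to 9.149 in R1881 arrays, with 0.306 and 5.46e-05. These 3 genes, 8.82% of members beside 1.89% of all genes, had every Apigenin array above every R1881 array. The other probes of CANX and SYVN1 followed the chosen ones over all arrays at only 0.242 and 0.255 (Pearson's r). HYOU1 had 9.758, 9.847 and 9.281 under Apigenin, against 8.425 to 9.532 under R1881, and CALR 10.94, 11.34 and 10.75, against 10.07 to 10.99, so both overlap and were called on 91 arrays but not on all 96 (adjusted p = 0.0152 and 0.0267 by limma). ATF6 had 8.450, 7.868 and 8.265 under Apigenin, against 8.745 to 9.360 under R1881, every Apigenin array below every R1881 array as for 4.37% of all genes, with adjusted p-values of 0.159 and 8.47e-07. Array 2 of Apigenin correlated at 0.909 with its profile, just above the limit, and held the highest HSPA5 and CANX and the lowest ATF6 of the group. Its mean over 8 luminal markers was 8.87, against 9.16 to 9.64 on R1881 arrays, and over 8 stromal, endothelial and leukocyte markers 7.15, against 6.75 to 6.95. KRT19 and HOXB13, luminal markers, were called lower under Apigenin on 91 arrays, and the part of these marker levels in the results was not tested. On the remaining 95 arrays without array 2 of Apigenin the changes were 0.74 for HSPA5, 0.77 for CANX, 0.79 for SYVN1, 0.47 for HYOU1, 0.30 for CALR and -0.68 for ATF6, each with an adjusted p above 0.6 by limma. That fit had no profile block, and no member was called in it with array 2 either. Whether the calls on 91 arrays depend on array 2 was not tested.

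**Figure D5:**
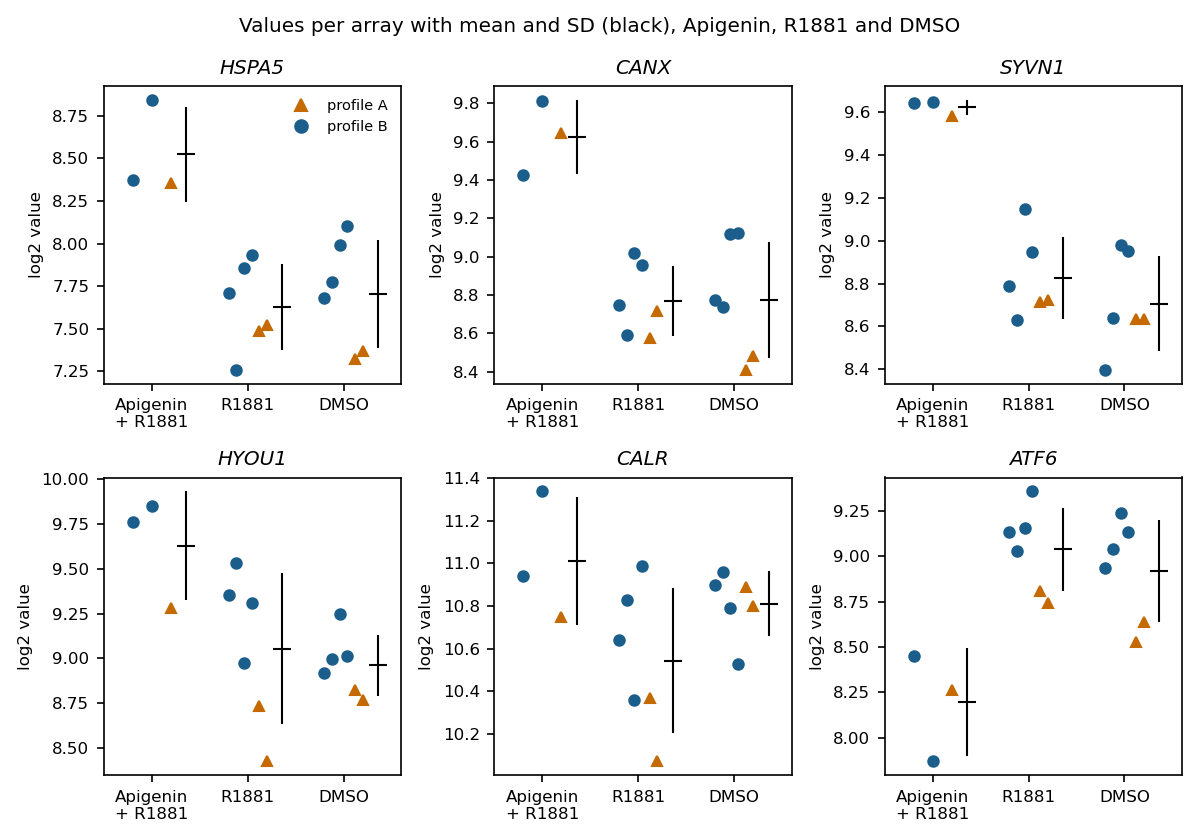
Log2 values per array of HSPA5, CANX, SYVN1, HYOU1, CALR and ATF6 in Apigenin with R1881 (3 arrays), R1881 (6 arrays) and DMSO (6 arrays), with profile A as triangles, profile B as circles and the group mean with SD in black. HSPA5, CANX and SYVN1 under Apigenin lie above all R1881 arrays and ATF6 below all of them.

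MANF had 10.78, 10.73 and 11.41 under Apigenin, a change of -0.29 with a standard error of 0.163 on 91 arrays (adjusted p = 0.249 by limma). The difference between the 2 chemicals was not tested. The other pathway lists under Apigenin, read beside the 15.7% of all genes called, held 3 of 20 folding enzymes called higher on 91 arrays (FKBP2, ERP29 and CNPY2), 2 of 19 translocation and glycosylation subunits higher (SRPRA and RPN2), and 1 higher and 4 lower of 15 ERAD components, with UBE2J1, an ERAD ubiquitin-conjugating enzyme, lower by a change of -1.38 and called on all arrays as well. HSPA8 and DNAJA1 of the 12 cytosolic heat shock genes were lower on 91 arrays. These genes were chosen for mention after their values were seen.

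Spironolactone had 7 members called on all arrays, beside 17.7% of all genes. DNAJC3 was higher and DNAJB9, DNAJB11, XBP1, ATF6, SSR1 and SELENOS were lower. Array 2 of Spironolactone stands apart at a correlation of 0.488 with its profile. Its mean over the luminal markers was 7.43, against 9.16 to 9.64 on R1881 arrays. Without array 2, 1 member was called, in a fit whose share of all genes is not given here. On 91 arrays DNAJB9 (-0.62, adjusted p = 0.00156) and XBP1 (-0.74, adjusted p = 0.0427) were lower and PDIA4 (0.65, adjusted p = 0.0235) higher by limma, beside 8.04% of all genes. DNAJB9 had 9.007, 6.992 and 8.914 in Spironolactone arrays 1, 2 and 3, against 9.474 to 9.871 in R1881 arrays and 8.858 to 9.452 in DMSO arrays, so arrays 1 and 3 lay below R1881 and near DMSO. XBP1 had 10.57, 7.699 and 10.48, against 10.50 to 11.35 in R1881 arrays, and array 1 overlaps them. PDIA4 had 9.222, 6.587 and 9.320, against 8.253 to 8.714 in R1881 arrays, so its sign without array 2 is the opposite of that with it (-0.12). DNAJC3 had 7.315, 7.496 and 7.336 under Spironolactone, against 6.802 to 7.126 under R1881, without overlap, and its change on all arrays was 0.36 (adjusted p = 0.0216 by limma). For the other called members the low array 2 set the mean. DNAJB11 had 10.92, 9.419 and 10.72 under Spironolactone, against 10.90 to 11.19 under R1881, and SELENOS had 11.18, 9.705 and 11.23, against 11.07 to 11.49. SSR1 had 9.958, 6.641 and 10.19 under Spironolactone, against 9.675 to 10.47 under R1881, and ATF6 had 8.948, 6.717 and 8.942, against 8.745 to 9.360. The changes on all arrays were -0.72 for DNAJB11, -0.66 for SELENOS, -1.16 for SSR1 and -0.84 for ATF6.

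Trenbolone, an androgen given at 0.5 uM, had 5 members called on all arrays, beside 10.2% of all genes. ERO1B was higher and HSP90B1, DNAJB11, XBP1 and SELENOS lower. Without array 2, which correlated at 0.361 with its profile, 0 were called, and on 91 arrays 0 were, beside 0.0269% of all genes. XBP1 had 11.13, 7.044 and 10.87 in Trenbolone arrays 1, 2 and 3, against 10.50 to 11.35 in R1881 arrays, and ERO1B had 7.059, 8.497 and 7.041, against 6.909 to 7.155, so arrays 1 and 3 were inside the R1881 range for both. HSP90B1 had 11.42, 10.23 and 11.63 under Trenbolone, against 11.63 to 11.92 under R1881. Array 2 was the low one there too, as it was for DNAJB11 (10.68, 9.169 and 11.25, against 10.90 to 11.19 under R1881) and for SELENOS (11.01, 9.295 and 11.27, against 11.07 to 11.49). Mifepristone, an antagonist of the progesterone and glucocorticoid receptors, had 0 members called in both fits, beside 0.0485% and 0.431% of all genes, with DNAJB9 at 0.46 (adjusted p = 0.055 by limma on 91 arrays). For the other 23 chemicals 0 calls of members were made in all on the 96 arrays, and 1 on 91 arrays. That was CALR under Prochloraz, an imidazole fungicide, with 11.02, 11.25 and 11.03 against 10.07 to 10.99 under R1881, a change of 0.63 (adjusted p = 0.0318 by limma, beside 0.565% of all genes). On all arrays the share of all genes called was 0.619% under MethylTestosterone, 0.323% under Testosterone_propionate, 0.124% under Dexamethasone, 0.0538% under Flutamide and Progesterone, 0.0485% under Fenitrothion and Procymidone, and 0.0431% under Bicalutamide and Vinclozolin. It was 0.0269% under Dehydroepiandrosterone, Finasteride, Prochloraz and Triticonazole, 0.0215% under Linuron and Tebuconazole, 0.0108% under DDE and Hydroxyflutamide, 0.00538% under Cyproterone_acetate, and 0% under Androstenedione, Atrazine, Dihydrotestosterone, Iprodione and Norethindrone. On 91 arrays the same share was 0.775% under Dexamethasone, 0.646% under Procymidone, 0.495% under Fenitrothion, 0.463% under Vinclozolin, 0.42% under Linuron, and 0.361% under Bicalutamide. It was 0.312% under Progesterone, 0.291% under Flutamide, 0.237% under Finasteride, 0.226% under Triticonazole, 0.21% under Dehydroepiandrosterone, and 0.183% under Hydroxyflutamide. It was 0.145% under Testosterone_propionate, 0.14% under DDE, 0.135% under Tebuconazole, 0.124% under Cyproterone_acetate, 0.0431% under Androstenedione, and 0.0215% under Dihydrotestosterone. It was 0.00538% under Atrazine, and 0% under Iprodione, MethylTestosterone and Norethindrone.

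DNAJB9 and MANF were the members that separated most often from R1881 over the chemicals. DNAJB9 lay above every R1881 array under BisphenolA and under Cyproterone_acetate (9.938, 10.35 and 9.939), a steroidal antiandrogen, where 0.576% of all genes did so. It lay below every R1881 array under Spironolactone, under Bicalutamide (9.378, 9.470 and 9.423), an antagonist of the androgen receptor, under Vinclozolin (9.171, 9.410 and 9.386), a fungicide with antiandrogenic metabolites, and under Triticonazole (9.390, 9.410 and 9.309), a triazole fungicide. The share of all genes below every R1881 array was 9.47% under Spironolactone, 1.87% under Bicalutamide, 1.03% under Vinclozolin and 0.738% under Triticonazole. Of these only BisphenolA and Spironolactone were called for DNAJB9 on 91 arrays, and the DNAJB9 change under Vinclozolin was -0.29 and under Triticonazole -0.27 with an adjusted p of 1. Under every other chemical DNAJB9 overlapped the R1881 arrays, among them Flutamide, Hydroxyflutamide, Procymidone, Linuron and Prochloraz. MANF lay above every R1881 array under BisphenolA, Prochloraz (11.90, 11.75 and 12.01), Spironolactone (11.61, 11.67 and 11.76), Finasteride (11.72, 11.73 and 11.90) and Tebuconazole (11.64, 11.72 and 11.65), and was called under BisphenolA only. The share of all genes above every R1881 array was 0.845% under Prochloraz, 1.65% under Spironolactone, 0.786% under Finasteride and 0.657% under Tebuconazole. All these comparisons share the 6 R1881 arrays.

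The members did not move as a block. Over the 30 group means the median of 561 pairwise correlations was 0.124, and within groups and profiles over 91 arrays it was 0.135. Pairs of opposite sign remained there, from -0.835 for CANX with PDIA6 to 0.848 for EDEM1 with XBP1. The closest pairs over group means were SEC24D with SSR3 at 0.908, DNAJC10 with SEC61B at 0.901 and SDF2L1 with SEC61A1 at 0.887. These points share the array profile, which divides the members into sets of opposite sign: SEC61A1 was 1.27, SDF2L1 0.97, CRELD2 0.80 and P4HB 0.63 higher in profile B than in profile A, while SEC61B was lower by a difference of -1.01, DERL1 and DNAJC10 of -0.96 and SEC24D of -0.84. What the profiles stand for was not tested.

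Promoters were read for the genes the results turn on, since ATF6 and XBP1 bind known elements there. RefSeq promoters on GRCh38.p14, from 250 bases before to 50 bases after a start, were listed for 30 of 34 measured members, and not used here for DERL1, DERL3, PDIA3 and SEC24D. The ER stress response element (ERSE, CCAAT followed after 9 bases of any kind by CCACG), ERSE-II (ATTGG, 1 base of any kind, CCACG) and the unfolded protein response element (UPRE, TGACGTGG) were searched on both strands. ERSE was in 8 of 30 members (CALR, CANX, CRELD2, ERO1B, HSP90B1, HSPA5, PDIA6 and XBP1). By promoter it was in 10 of the members' 39, beside 27 of all 35116 (0.0769%). Apart from EIF2AK3, the list was made of genes known to be regulated by ATF6 and XBP1 or to form those arms, so these shares describe it and test nothing. ERSE-II was in HYOU1 and SDF2L1, 2 of the 39 promoters beside 0.0541% of all. UPRE was in DNAJC10, HYOU1 and SSR3, 3 of the 39 beside 0.729%. In HYOU1 the UPRE overlaps 1 of its 2 ERSE-II matches. The following promoters belong to members called under BisphenolA or Apigenin, from 5′ to 3′ on the gene's strand, with matches to these 3 motifs in capitals, and, for MANF and DNAJB9, which hold none of the 3, the shared part CCACG in capitals, a match that 38.1% of all promoters hold.
HSPA5: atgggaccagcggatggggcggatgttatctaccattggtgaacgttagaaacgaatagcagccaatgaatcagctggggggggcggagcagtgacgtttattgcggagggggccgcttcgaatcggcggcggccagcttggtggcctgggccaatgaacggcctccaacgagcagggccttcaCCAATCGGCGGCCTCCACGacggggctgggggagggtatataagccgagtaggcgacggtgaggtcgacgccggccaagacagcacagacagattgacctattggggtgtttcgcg
CALR: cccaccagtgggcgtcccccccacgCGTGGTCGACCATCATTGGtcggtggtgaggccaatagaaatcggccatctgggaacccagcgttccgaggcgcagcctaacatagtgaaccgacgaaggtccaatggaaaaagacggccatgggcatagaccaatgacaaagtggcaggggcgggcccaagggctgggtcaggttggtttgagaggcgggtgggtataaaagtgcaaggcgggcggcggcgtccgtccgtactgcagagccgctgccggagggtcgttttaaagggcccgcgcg
HYOU1: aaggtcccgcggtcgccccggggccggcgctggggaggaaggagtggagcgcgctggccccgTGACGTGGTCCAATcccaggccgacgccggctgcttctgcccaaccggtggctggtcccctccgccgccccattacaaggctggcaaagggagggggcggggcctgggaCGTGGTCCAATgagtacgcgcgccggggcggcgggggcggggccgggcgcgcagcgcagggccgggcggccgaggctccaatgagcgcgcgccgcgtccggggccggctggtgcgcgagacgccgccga
CRELD2: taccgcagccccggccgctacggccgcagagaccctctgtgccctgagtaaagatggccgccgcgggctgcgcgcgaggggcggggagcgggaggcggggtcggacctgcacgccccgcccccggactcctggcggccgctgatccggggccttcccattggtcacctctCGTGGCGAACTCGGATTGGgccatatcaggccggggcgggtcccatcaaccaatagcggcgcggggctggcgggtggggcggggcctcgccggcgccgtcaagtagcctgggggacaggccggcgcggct
MANF: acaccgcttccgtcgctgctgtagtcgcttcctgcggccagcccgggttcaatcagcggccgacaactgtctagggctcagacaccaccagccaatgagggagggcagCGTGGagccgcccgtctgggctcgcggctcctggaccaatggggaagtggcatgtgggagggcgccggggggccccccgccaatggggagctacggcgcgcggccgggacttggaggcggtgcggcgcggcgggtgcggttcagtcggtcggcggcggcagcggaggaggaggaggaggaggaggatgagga
DNAJB9: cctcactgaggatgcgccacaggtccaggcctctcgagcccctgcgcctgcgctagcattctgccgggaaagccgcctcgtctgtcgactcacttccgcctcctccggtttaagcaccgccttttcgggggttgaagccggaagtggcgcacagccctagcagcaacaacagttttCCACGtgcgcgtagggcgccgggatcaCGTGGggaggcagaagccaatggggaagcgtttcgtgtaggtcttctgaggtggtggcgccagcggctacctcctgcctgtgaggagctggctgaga

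These promoters lie at chr9:125241294-125241593 on the minus strand for HSPA5, chr19:12938359-12938658 on the plus strand for CALR, chr11:119057156-119057455 on the minus strand for HYOU1, chr22:49918384-49918683 on the plus strand for CRELD2, chr3:51385041-51385340 on the plus strand for MANF and chr7:108569624-108569923 on the plus strand for DNAJB9. The ERSE of HSPA5 spans 66 to 48 bases before the start, that of CRELD2 80 to 62 bases and that of CALR 225 to 207 bases, the last 2 of them on the strand opposite to the gene. Of the 5 members called higher under Apigenin, HSPA5, CANX, CALR and HYOU1 held an ERSE or ERSE-II and SYVN1 held none of the motifs, and of the 3 called under BisphenolA, CRELD2 held an ERSE and MANF and DNAJB9 held none of the motifs. Over the 12 members with a match the median change was 0.22 under Apigenin, against 0.04 over the 18 without, and under BisphenolA it was 0.33 against 0.22 on 91 arrays and 0.27 against 0.23 on all. With BisphenolA set against the other 27 chemicals the same medians were 0.26 against 0.20 on 91 arrays and 0.26 against 0.32 on all, so the order of matched and unmatched members was not the same in every fit. For R1881 against DMSO they were 0.01 against 0.04. A match is a description of letters in this window and says nothing of binding in these cells.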

How the data were processed

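Gene expression was measured on 96 arrays of LAPC4 cells in 30 groups taken from the labels. Arrays were read on an iScan (software 3.3.28), per the series' design text, which also names GenomeStudio and Partek. The submitters' processing notes name limma. The deposited values are log2, judged from their range of 6.3157 to 14.152, and their equal array medians point to normalization between arrays, so they were used as deposited. How the background was corrected is not given in the sources used. Of 48107 probes, 43820 lay above their array's median (50th percentile) in at least 3 arrays. The platform annotation gave 30113 probes 1 gene symbol, 8 several and 17986 none, and its symbols can be old. The probe with the highest mean was kept for each of 18571 genes. Where a member had another probe, its Pearson's r with the chosen probe over the arrays was 0.891 for XBP1 and 0.733 for DNAJC10. It was lower for HYOU1, SYVN1 and CANX, at 0.423, 0.255 and 0.242. For SELENOS, ERO1B, DERL3 and DERL2 it was -0.468, -0.286, -0.178 and -0.111, so these members rest on the chosen probe. SELENOS had 3 probes, and only the first of the others was compared.

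limma 3.58.1 (R 4.3.3) fitted 1 mean per group (lmFit, contrasts.fit, eBayes), with Benjamini-Hochberg adjustment over all genes and a threshold of 0.05. The fit on 91 arrays left out 5 arrays that correlated below 0.9 with their profile, found by k-means on 2000 genes that excluded the members, and added the profile as a block. The script was tested on simulated data. The number of arrays limits precision. The members, lists and alternatives were chosen with earlier results of these data known. Same-numbered arrays deviated together (every correlation of deviations from the group means over 0.1) in 13 of 29 comparisons, among them R1881 against DMSO (lowest 0.716) and Apigenin (lowest 0.518), and not for BisphenolA (-0.684 for number 1). For R1881 against DMSO and Apigenin a fit on the compared arrays with the number as a replicate block was added after seeing the data. Named genes are members called in a comparison, the 5 with the largest change under BisphenolA and, whatever their values, HSPA5, XBP1 and HERPUD1, the last not analysed here.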

Additional observations from a re-analysis of the deposited data

Results flagged for a closer look

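Among 68 groups of 6 arrays tested (34 genes in R1881 and in DMSO), 3 had an array far from the other 5, where chance marks about 1 in 20. HSP90B1 was at 11.92 in R1881 array 2, with the others at 11.63 to 11.73. EDEM1 was at 7.18 in R1881 array 2b, with the others at 7.742 to 7.882. SELENOS was at 11.07 in R1881 array 1b, with the others at 11.36 to 11.49. The cause was not tested.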

How the results depend on the processing

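Of 34 combinations of a named gene and a comparison, 26 kept their sign under every alternative that left no single array out. With array weights, which give less weight to arrays that deviate more from their group mean, 13 members were called under BisphenolA against R1881, all higher, beside 14.5% of all genes. Against the other 27 chemicals 20 were called (18 higher and 2 lower), beside 35.8%. BisphenolA arrays 1 and 3, of profile A, weighed 4.2 and 3.38, and array 2, of profile B, 0.333. R1881 arrays 3 and 3b, of profile A, weighed 0.706 and 0.672, and those of profile B 0.705 to 2.14. The weighted fit had no profile block, so the weighting is uneven over the profiles. The part of the profile in these counts was not tested. With the same weights 12 were called under Spironolactone (27.5% of all genes), 4 under Apigenin (5.71%), 1 under Mifepristone (3.25%), 1 under R1881 (0.851%), 0 under Trenbolone (0.0162%) and 25 over the other 23 chemicals (2.4%). Without the 5 arrays that stand apart and with the profile as a block the counts were 3 and 3 for the BisphenolA comparisons, 3 for Spironolactone, 6 for Apigenin, 1 for R1881, 0 for Trenbolone and 1 for the other 23. Without these arrays alone, an alternative chosen after seeing the data, they were 2 and 1 for the BisphenolA comparisons (0.215% and 0.0431% of all genes), 2 for Spironolactone (4.3%), 4 for Apigenin (6.81%), 1 for R1881 (0.366%) and 0 for Trenbolone (0.0269%), and with the profile alone as a block, also chosen after seeing the data, 2 for Apigenin (3.48%) and 11 for Trenbolone (17%). The mean of a gene's probes gave 1 under Apigenin (1.38%) and 3 under Trenbolone (9.79%). Cyclic loess gave 3 under Spironolactone (12.5%), 3 under Apigenin (3.31%) and 1 under Trenbolone (5.66%), and averaging control arrays of the same number gave 1 for Spironolactone (9.69%) and 0 for Trenbolone (0.0108%). Leaving out 1 array at a time gave 1 to 9 under Spironolactone (1 without its array 2) and 0 to 13 under Trenbolone. Under Trenbolone the count was 12 without array 1, 0 without array 2 and 13 without array 3. Over the other 23 it was 0 to 1 (1 without MethylTestosterone array 3 or Flutamide array 2). It was 0 throughout for R1881, BisphenolA, Apigenin and Mifepristone. With every array in, 17.7% of all genes were called under Spironolactone and 10.2% under Trenbolone. The shares of all genes with 1 array left out are not given here, so these counts are not results about the members.

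The sign turned for XBP1 under R1881 with the mean of probes (-0.0302) and for 1 array left out at a time (-0.0749 to 0.12), for CRELD2 under BisphenolA with array weights (-0.25) and without BisphenolA array 2 (-0.18 to 0.36 over all arrays left out), for PDIA4 under Spironolactone with cyclic loess (0.57), array weights (0.72), without the arrays that stand apart (0.77) and with the block as well (0.65), its range over arrays left out being -0.60 to 0.77, for SSR1 under Spironolactone with array weights (0.0137), for DNAJB11 (0.0253) and ATF6 (0.16) under Spironolactone without the arrays that stand apart and with the block, and for HSP90B1 (0.20) and DNAJB11 (0.13) under Trenbolone with cyclic loess. The array number as a replicate block gave 0 members called for R1881, 0 for BisphenolA and 0 for Apigenin in the fit on all arrays. In that fit 7 were called for Spironolactone and 6 for Trenbolone. Without the block 17.7% and 10.2% of all genes were called under these 2 chemicals. The shares with the block are not given here, so the 7 and 6 are not results about the members. On the compared arrays alone, added after seeing the data for the 2 comparisons whose numbers pair arrays, the block gave 1 for R1881 and 5 for Apigenin, beside the shares of all genes given above. The cause of these differences was not tested. Dim probes, among them those of ERN1 and PDIA3, limit what a change can show.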
